A study of Mus musculus with 18 samples.

Results

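Nr4a1, Nr4a2, Nr4a3, Egr1, Egr2, Egr3, Nfatc1, Spry1, Cd5 and Cd69, 10 mouse genes known for responding to the T cell receptor, were described in regulatory T cells sorted from lymph node and spleen. They were chosen by name, with earlier results of these data known. All 10 had a row among the 14011 genes of the deposited normalized table and the 37991 genes of the deposited count table. The study took CD4+ T cells from peripheral lymph nodes and spleens of 3 littermate mice, numbered 84, 86 and 87, on a C57BL/6 background. All mice carried both reporter alleles, Id3-GFP and Foxp3-mRFP. Each of the 18 libraries came from 500 sorted cells, so each of the 6 groups had 3 libraries, 1 from each mouse. After magnetic enrichment for CD4, cells were sorted live by both reporters together with surface CD44 and CD62L.

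The groups were 3 regulatory T cell populations in each of 2 tissues. Id3- eTR were Id3-negative effector regulatory T cells, for which the labels name no CD62L or CD44 gate. Id3+ eTR were Id3-positive effector cells, sorted as CD62L-low and CD44-high. Id3+ cTR were Id3-positive central regulatory T cells, sorted as CD62L-high and CD44-low. No library came from cells stimulated through the receptor, so induction itself was not measured. Age and sex of the mice were not given in the sources used here.

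Engagement of the T cell receptor raises calcium, which activates the phosphatase calcineurin and through it the NFAT factors, and switches on the Ras and ERK kinases. The Nr4a and Egr families are transcription factors made within the first hours of that signal, and in regulatory T cells Nr4a factors are known to sustain Foxp3. Nfatc1 encodes an NFAT factor that raises its own transcription, Spry1 an intracellular inhibitor of the ERK branch, and Cd5 and Cd69 surface proteins whose levels follow signal strength and recent activation.

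Promoter sequence of 4 of the genes is shown because Egr2, Spry1 and Nr4a2 had the results described below and Nr4a1, from the same family as Nr4a2, had none. The sequences, 300 bases each, run from 250 bases before the transcription start and come from RefSeq on build GRCm38.p6. They lie at chr10:67537619-67537918 on the plus strand for Egr2 and at chr3:37639697-37639996 on the plus strand for Spry1. Those of Nr4a1 and Nr4a2 lie at chr15:101266596-101266895 on the plus strand and at chr2:57123954-57124253 on the minus strand. Egr2 had 5 entries, and the entry shown was picked because its start matches that of an annotated GENCODE transcript. Other Egr2 entries were not compared with GENCODE. Capitals mark matches, on either strand, to 4 motifs: the cAMP response element half-site TGACG, the CArG box bound by serum response factor, the EGR site GCGNGGGCG and the NFAT core GGAAA.
Egr2: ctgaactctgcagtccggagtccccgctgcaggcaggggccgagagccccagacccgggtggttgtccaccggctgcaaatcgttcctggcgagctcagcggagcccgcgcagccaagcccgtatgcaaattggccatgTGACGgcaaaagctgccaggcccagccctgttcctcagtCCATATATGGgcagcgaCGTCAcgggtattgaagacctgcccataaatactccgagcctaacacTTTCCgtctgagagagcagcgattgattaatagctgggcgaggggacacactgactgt
Spry1: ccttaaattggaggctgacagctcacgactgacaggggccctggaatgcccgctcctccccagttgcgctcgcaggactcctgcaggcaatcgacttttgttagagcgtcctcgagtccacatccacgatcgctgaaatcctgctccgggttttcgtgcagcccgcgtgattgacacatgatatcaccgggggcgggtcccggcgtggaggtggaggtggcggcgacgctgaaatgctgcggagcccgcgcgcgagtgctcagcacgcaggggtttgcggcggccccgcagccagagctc
Nr4a1: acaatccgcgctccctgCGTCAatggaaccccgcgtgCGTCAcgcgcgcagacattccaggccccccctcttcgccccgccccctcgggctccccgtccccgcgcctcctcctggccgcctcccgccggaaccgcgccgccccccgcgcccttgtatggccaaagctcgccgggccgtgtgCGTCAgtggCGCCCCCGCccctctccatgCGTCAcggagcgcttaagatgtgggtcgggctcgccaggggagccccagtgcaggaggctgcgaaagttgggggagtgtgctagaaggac
Nr4a2: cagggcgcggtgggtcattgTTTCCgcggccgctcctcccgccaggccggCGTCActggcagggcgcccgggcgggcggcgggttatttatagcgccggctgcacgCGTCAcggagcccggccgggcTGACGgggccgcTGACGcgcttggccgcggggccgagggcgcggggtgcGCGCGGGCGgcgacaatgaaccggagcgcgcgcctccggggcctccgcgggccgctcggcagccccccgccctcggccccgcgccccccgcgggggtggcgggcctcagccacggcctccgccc
No match overlapped another. The Egr2 window shown held 2 half-sites, 1 CArG box and 1 NFAT core. Other Egr2 entries differed. The entry starting at 67537566 held 1 CArG box, 3 NFAT cores and no half-site, and that starting at 67535499 held none of the 4 motifs. Nr4a1 held 4 half-sites and 1 EGR site. Nr4a2 held 4 half-sites, 1 EGR site and 1 NFAT core. These letters were not found in the Spry1 window. Among 32851 mouse promoters of the same length, 20.8% held a half-site, 1.63% a CArG box, 5.55% an EGR site and 61.3% an NFAT core. Of the 10 genes, 6 had an entry in the promoter table, and Egr1, Egr3, Nfatc1 and Cd69 had none.

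Library totals ran between 1600782 and 3153325 counts, and between 13701 and 15045 genes had at least 1 count. Spleen Id3+ cTR of mice 84 and 87 had the lowest totals, 1600782 and 1684461 counts, where the next lowest library had 2111016. Spleen Id3+ eTR of mouse 84 had the highest total and stood above the other libraries of its group for Nr4a1, Egr1, Egr2 and Nfatc1. These 3 libraries stood apart from the rest. A result given only with all libraries may still rest on them, as the spleen differences of Spry1 do. Some results that rest on them are also given without them. Spleen Id3+ cTR is then left with 1 library, which is assumed to vary like the other groups. Levels are CPM, the counts of a gene scaled to a common library size after TMM normalization, with 3 values of a group in the order of mice 84, 86 and 87. Differences are log2 fold changes ± SE from edgeR's quasi-likelihood test over 12445 genes, called at a Benjamini-Hochberg adjusted p under 0.05. In sorted pools such as these, fewer cells expressing a gene and less of its RNA in each cell cannot be told apart.

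Nfatc1 was the gene called in the most comparisons. It rose in both effector populations of both tissues relative to Id3+ cTR, by 1.88-fold to 2.44-fold. Egr1 and Egr2 rose in both effector populations in spleen, Egr1 by 3.56-fold and 3.85-fold and Egr2 by 6.28-fold and 9.3-fold. Spry1 rose in 3 of the 4 comparisons with Id3+ cTR. Nr4a2 was 4.16-fold lower in Id3- eTR than in Id3+ eTR of lymph node. Nr4a1, Nr4a3, Cd5 and Cd69 were not called in any comparison, and Egr3 was too low to test. Over the 12 comparisons that follow, 108 tests of 9 genes gave 12 calls in 5 genes.

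**Figure D1:**
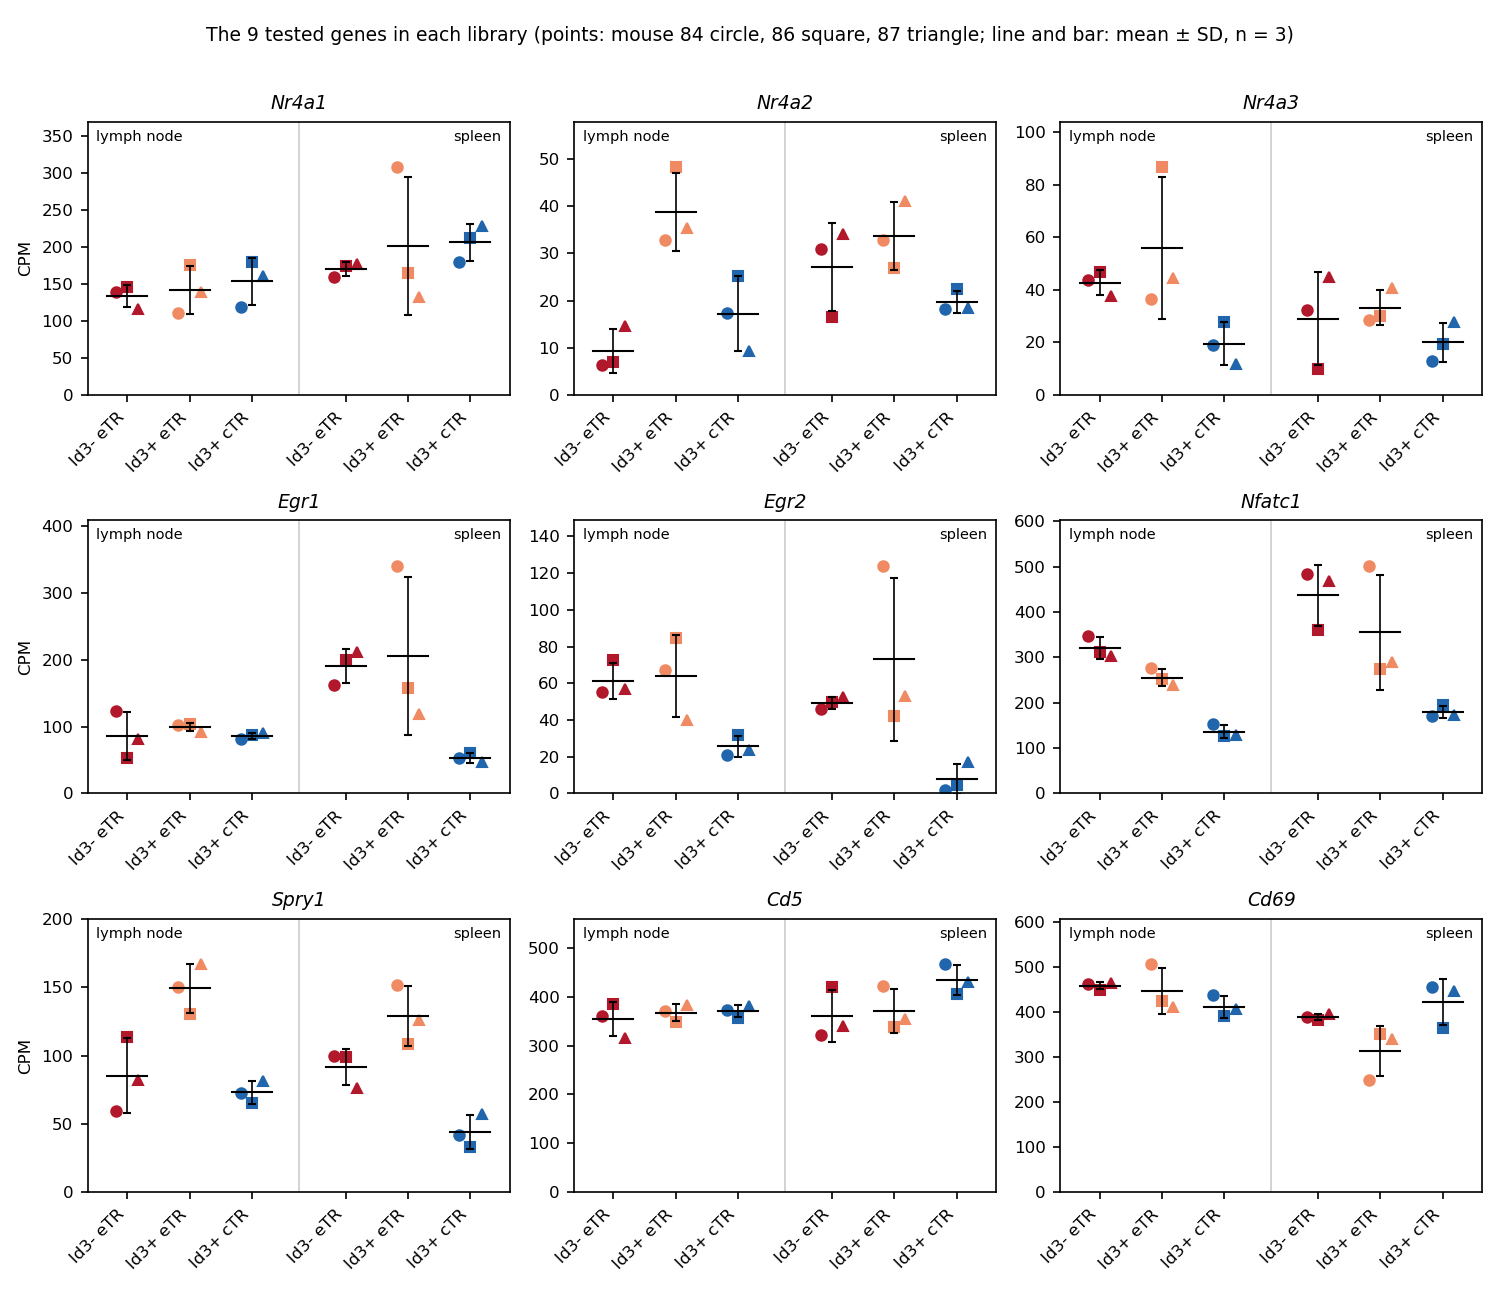
Level of each of the 9 tested genes in CPM (linear axis from 0) in the 18 libraries, with Id3- eTR, Id3+ eTR and Id3+ cTR of lymph node on the left of each panel and those of spleen on the right. Points are single libraries, horizontal lines are means and bars are SD over 3 mice. Nfatc1 lay at 238.5 CPM or above in every effector library and at 194 CPM or below in every Id3+ cTR library.

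In lymph node, 1 of the 9 tested genes was higher and none lower in Id3- eTR against Id3+ cTR, where 12.9% of all tested genes were called in either direction, 8.26% higher and 4.68% lower. The median log2 fold change of the 9 genes was 0.16, beside 0.00 over all genes. In Id3+ eTR against Id3+ cTR of lymph node, 2 were higher and none lower, with 5.66% of all genes called, 4.2% higher and 1.46% lower. The medians there were 0.91 for the 9 genes and 0.00 for all genes. In spleen, 4 were higher and none lower in Id3- eTR against Id3+ cTR, with 12.3% of all genes called, 7.17% higher and 5.09% lower. The medians were 0.55 and 0.00. In spleen, 4 were also higher and none lower in Id3+ eTR against Id3+ cTR, with 4.32% of all genes called, 2.93% higher and 1.39% lower. The medians were 0.77 and 0.05. Both comparisons of a tissue share its 3 Id3+ cTR libraries, so their calls are not independent. In Id3- eTR against Id3+ eTR, 1 of 9 was lower in lymph node, with 2.62% of all genes called, 1.45% higher and 1.17% lower. None of the 9 was called in spleen, with 3.28% of all genes called, 1.53% higher and 1.75% lower. For that spleen count of 0, 2 genes had an unadjusted p under 0.05 and DESeq2 called 0. The genes were chosen with earlier results of these data known, so these counts and medians beside all genes are descriptive only.

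**Figure D2:**
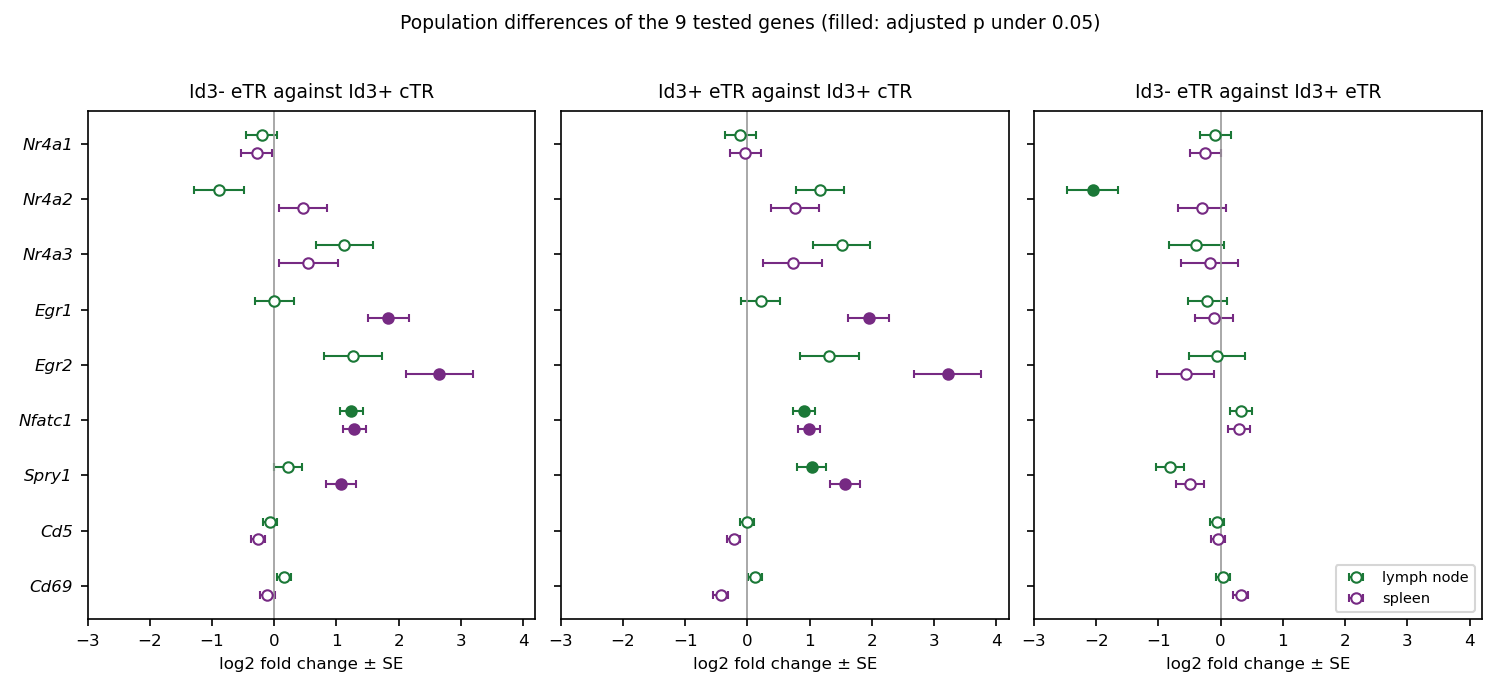
Log2 fold change of the 9 tested genes between populations, with lymph node (green) above spleen (purple) in each row. Bars are SE from the edgeR fit of all 18 libraries, and filled points passed an adjusted p of 0.05. All 11 filled points against Id3+ cTR lie to the right of 0, and the 1 filled point between the effector populations, Nr4a2 in lymph node, lies to the left.

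Nr4a1, which encodes the orphan nuclear receptor Nur77 and whose reporter is used as a gauge of receptor signal, was not called in any population comparison. In lymph node it was at 139, 146 and 117 CPM in Id3- eTR and at 110, 176 and 139 CPM in Id3+ eTR, against 119, 180 and 162 CPM in Id3+ cTR. In spleen it was at 160, 174 and 177 CPM in Id3- eTR and at 308, 164 and 132 CPM in Id3+ eTR, against 180, 213 and 228 CPM in Id3+ cTR. The groups of lymph node overlapped, and in spleen Id3- eTR lay just below Id3+ cTR in every mouse. The largest difference from Id3+ cTR was -0.28 ± 0.25 in spleen Id3- eTR (edgeR adjusted p = 0.55). The value of 308 CPM belongs to the spleen Id3+ eTR library of mouse 84.

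Nr4a2, an orphan nuclear receptor of the same family, fell in Id3- eTR of lymph node relative to Id3+ eTR of the same tissue. In lymph node it was at 6.29, 6.94 and 14.6 CPM in Id3- eTR and at 33.0, 48.3 and 35.3 CPM in Id3+ eTR, against 17.4, 25.1 and 9.23 CPM in Id3+ cTR. The effector groups did not overlap, and Id3- eTR was lower in 3 of 3 mice. The difference between them was -2.06 ± 0.41 (edgeR adjusted p = 0.00871). The call was lost without lymph node Id3- eTR of mouse 84 (-1.85, adjusted p = 0.0562) or mouse 86 (-1.89, adjusted p = 0.0549), within a range of adjusted p from 0.000129 to 0.0562 over all alternatives. The levels rest on 16 to 41 counts in each Id3- eTR library. In spleen Nr4a2 was at 30.9, 16.5 and 34.1 CPM in Id3- eTR and at 32.8, 26.9 and 41.2 CPM in Id3+ eTR, against 18.2, 22.4 and 18.5 CPM in Id3+ cTR. The effector groups overlapped there, at -0.30 ± 0.38 (adjusted p = 0.758). The difference between tissues in this contrast was itself tested and was not called, at -1.75 ± 0.55 (edgeR interaction, adjusted p = 0.544).

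Nr4a3, the third member of the family, was not called. In lymph node it was at 43.6, 46.8 and 37.4 CPM in Id3- eTR and at 36.3, 86.6 and 44.3 CPM in Id3+ eTR, against 18.9, 27.8 and 11.7 CPM in Id3+ cTR. Both effector groups lay above Id3+ cTR with no overlap. Relative to Id3+ cTR the difference was 1.12 ± 0.46 in Id3- eTR (edgeR adjusted p = 0.131) and 1.51 ± 0.46 in Id3+ eTR (adjusted p = 0.0688). DESeq2 called the second at an adjusted p of 0.0181, within a range from 0.0181 to 0.314 over all alternatives. In spleen Nr4a3 was at 32.4, 9.89 and 44.8 CPM in Id3- eTR and at 28.5, 30.1 and 40.8 CPM in Id3+ eTR, against 13.0, 19.2 and 27.8 CPM in Id3+ cTR. There Id3- eTR overlapped Id3+ cTR, and the Id3+ eTR libraries all lay above it.

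Egr1, an immediate-early zinc finger factor, rose in both effector populations of spleen. There it was at 162, 199 and 211 CPM in Id3- eTR and at 340, 158 and 119 CPM in Id3+ eTR, against 52.7, 60.7 and 46.2 CPM in Id3+ cTR. No effector library overlapped the Id3+ cTR libraries. The differences were 1.83 ± 0.33 in Id3- eTR (edgeR adjusted p = 0.00109) and 1.95 ± 0.33 in Id3+ eTR (adjusted p = 0.00276), in the same direction in 3 of 3 mice each. Without the 3 libraries that stood apart, the call in Id3+ eTR was lost (1.19 ± 0.37, adjusted p = 0.256, the highest over all alternatives, whose lowest was 1.96e-07). In lymph node Egr1 was at 123, 52.6 and 82.0 CPM in Id3- eTR and at 102, 104 and 92.4 CPM in Id3+ eTR, against 80.6, 86.6 and 89.8 CPM in Id3+ cTR. The Id3- eTR libraries lay on both sides of Id3+ cTR there, and the difference was 0.00 ± 0.32 (adjusted p = 1.0). Id3+ eTR lay slightly above Id3+ cTR in every mouse, at 0.21 ± 0.32 (adjusted p = 0.854).

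Egr2, a zinc finger factor of the same family that restrains T cell activation, had the largest fold changes of the 9 genes. In spleen it was at 46.0, 49.9 and 52.5 CPM in Id3- eTR and at 124, 42.3 and 52.9 CPM in Id3+ eTR, against 1.95, 4.79 and 17.3 CPM in Id3+ cTR. The Id3+ cTR levels rest on 3, 12 and 28 counts, and all effector libraries lay above them. The differences were 2.65 ± 0.54 in Id3- eTR (edgeR adjusted p = 0.00289) and 3.22 ± 0.54 in Id3+ eTR (adjusted p = 0.00245). Both depend in size on single libraries. Without spleen Id3+ cTR of mouse 87 they were 3.76 and 4.33, without spleen Id3+ eTR of mouse 84 the second was 2.60, and without the 3 libraries that stood apart the first was 3.35. All of these were called.

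In lymph node Egr2 was at 55.0, 72.7 and 56.7 CPM in Id3- eTR and at 67.4, 84.6 and 40.2 CPM in Id3+ eTR, against 21.2, 31.7 and 23.8 CPM in Id3+ cTR. Both effector groups lay above Id3+ cTR in every mouse with no overlap. The differences, 1.26 ± 0.47 (edgeR adjusted p = 0.0898) and 1.32 ± 0.47 (adjusted p = 0.131), were not called with all libraries in the fit. They were called by DESeq2 (adjusted p = 0.0356 and 0.0469). Without the 3 spleen libraries that stood apart, which belong to neither group of these contrasts, they were nearly the same size, 1.26 and 1.32. The SE fell to 0.26 and 0.27 there. Spleen Id3+ eTR of mouse 84 was set apart in part by its high Egr2, so that smaller spread is not separate support. The highest adjusted p over all alternatives was 0.236 for Id3- eTR, and for Id3+ eTR it was 0.363.

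Egr3, the remaining member of that family, had 21 counts in all 18 libraries together and 0 counts in 10 of them. Lymph node Id3- eTR, Id3+ eTR and Id3+ cTR held 5, 3 and 9 counts. The spleen groups held 2, 2 and 0 counts, and the 0 over the 3 Id3+ cTR libraries allows up to 0.53 CPM, counting error only. Egr3 therefore did not pass the filter on low counts, and no fold change is given for it. Differences between groups were not detectable at this depth.

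Nfatc1 was at 348, 312 and 303 CPM in Id3- eTR and at 277, 252 and 239 CPM in Id3+ eTR of lymph node, against 153, 126 and 129 CPM in Id3+ cTR. In spleen it was at 484, 360 and 468 CPM in Id3- eTR and at 502, 275 and 290 CPM in Id3+ eTR, against 171, 194 and 172 CPM in Id3+ cTR. In both tissues all effector libraries lay above all Id3+ cTR libraries. In lymph node the differences from Id3+ cTR were 1.24 ± 0.18 in Id3- eTR (edgeR adjusted p = 0.000181) and 0.91 ± 0.18 in Id3+ eTR (adjusted p = 0.00599). In spleen they were 1.29 ± 0.19 in Id3- eTR (adjusted p = 0.000148) and 0.99 ± 0.18 in Id3+ eTR (adjusted p = 0.00496). Only the last was lost under an alternative, at 0.54 ± 0.18 without the 3 libraries that stood apart (adjusted p = 0.294, against a lowest of 1.39e-05).

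Between the effector populations Nfatc1 was higher in Id3- eTR in every mouse of lymph node, where the ranges did not overlap, at 0.33 ± 0.18 (edgeR adjusted p = 0.478). In spleen the ranges overlapped because of Id3+ eTR of mouse 84, and the difference was 0.30 ± 0.18 (adjusted p = 0.439). Without that library it was 0.64 ± 0.13 and called (edgeR adjusted p = 0.011, the lowest over all alternatives, which reached 0.764). It was 0.63 without the 3 libraries that stood apart. Spleen Id3+ eTR of mouse 84 was set apart in part by its high Nfatc1, so neither fit without it is separate support.

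Spry1 was at 99.7, 99.3 and 76.5 CPM in Id3- eTR and at 152, 109 and 126 CPM in Id3+ eTR of spleen, against 41.6, 33.2 and 57.3 CPM in Id3+ cTR. The 3 groups did not overlap, with Id3+ eTR highest and Id3+ cTR lowest. The differences from Id3+ cTR were 1.07 ± 0.24 in Id3- eTR (edgeR adjusted p = 0.00638) and 1.56 ± 0.24 in Id3+ eTR (adjusted p = 0.00115). In lymph node Spry1 was at 59.3, 114 and 82.3 CPM in Id3- eTR and at 151, 131 and 167 CPM in Id3+ eTR, against 72.3, 65.1 and 81.7 CPM in Id3+ cTR. Id3+ eTR lay above both other groups, and Id3- eTR overlapped Id3+ cTR. Id3+ eTR rose by 1.03 ± 0.23 relative to Id3+ cTR (adjusted p = 0.0101), a call lost without lymph node Id3+ cTR of mouse 86 (adjusted p = 0.0575, the highest over all alternatives, from 0.00041). Id3- eTR differed from Id3+ cTR by 0.22 ± 0.23 (adjusted p = 0.627).

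Between the effector populations of lymph node Spry1 was lower in Id3- eTR in every mouse, at -0.81 ± 0.23, which was not called by edgeR (adjusted p = 0.0728). It was called by DESeq2 (adjusted p = 0.0225) and without lymph node Id3- eTR of mouse 86 (-1.08, adjusted p = 0.0257), and the highest value over all alternatives was 0.289. In spleen the corresponding difference was -0.49 ± 0.23 (adjusted p = 0.286).

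Cd5, a surface inhibitor of receptor signalling that is set during thymic selection, differed little. In lymph node it was at 360, 385 and 316 CPM in Id3- eTR and at 371, 349 and 384 CPM in Id3+ eTR, against 373, 356 and 381 CPM in Id3+ cTR. In spleen it was at 322, 421 and 340 CPM in Id3- eTR and at 423, 337 and 354 CPM in Id3+ eTR, against 466, 406 and 430 CPM in Id3+ cTR. All groups of a tissue had overlapping ranges. Its group means ran from 354 to 434 CPM, lowest in lymph node Id3- eTR and highest in spleen Id3+ cTR. The difference with the largest size, -0.27 ± 0.11 in spleen Id3- eTR against Id3+ cTR (edgeR adjusted p = 0.142), was called only without spleen Id3- eTR of mouse 86 (-0.39, adjusted p = 0.0331), and the adjusted p reached 0.609 over the alternatives.

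Cd69, an early activation antigen that retains T cells in tissue by binding the egress receptor S1PR1, was not called. In spleen it was at 389, 382 and 396 CPM in Id3- eTR and at 249, 350 and 339 CPM in Id3+ eTR, against 455, 364 and 445 CPM in Id3+ cTR. Id3+ eTR lay below both other groups with no overlap. The difference between Id3+ eTR and Id3+ cTR was -0.43 ± 0.12, just outside the threshold with edgeR (adjusted p = 0.052). DESeq2 called it (adjusted p = 0.011), as did the edgeR fits without spleen Id3+ eTR of mouse 86 (0.0347) or spleen Id3+ cTR of mouse 86 (0.0227), whereas the highest adjusted p over all alternatives was 0.961. In lymph node Cd69 was at 463, 448 and 463 CPM in Id3- eTR and at 505, 425 and 410 CPM in Id3+ eTR, against 436, 390 and 406 CPM in Id3+ cTR. There Id3- eTR lay above Id3+ cTR with no overlap, at 0.16 ± 0.12 (adjusted p = 0.47).

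The order of the 6 groups differed between genes. For Nfatc1 the 4 effector groups held the 4 highest means, with spleen Id3- eTR (437 ± 67.4 CPM, SD, n = 3) first, and lymph node Id3+ cTR was last (136 ± 14.7 CPM). Ranges of neighbouring groups overlapped for the first 3 groups and were separate below them. For Egr1 both spleen effector groups came first (206 ± 118 CPM in Id3+ eTR and 191 ± 25.5 CPM in Id3- eTR), the 3 lymph node groups followed with overlapping ranges, and spleen Id3+ cTR was last at 53.2 ± 7.26 CPM. Egr2 had the same group last, at 1.95 to 17.3 CPM, below lymph node Id3+ cTR at 21.2 to 31.7 CPM with no overlap. Spry1 was highest in the Id3+ eTR groups of both tissues (149 ± 18.2 CPM in lymph node and 129 ± 21.9 CPM in spleen) and lowest in spleen Id3+ cTR (44.0 ± 12.3 CPM). For Nr4a2 the Id3+ eTR groups also came first (38.9 ± 8.27 and 33.6 ± 7.20 CPM) and lymph node Id3- eTR last (9.28 ± 4.63 CPM), with every neighbour overlapping. Neighbouring groups of Nr4a1, Nr4a3 and Cd5 overlapped throughout, and for Cd69 only spleen Id3+ eTR stood apart from its neighbour.

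Between tissues none of the 9 genes was called. In lymph node against spleen, 0.305% of all genes were called in Id3- eTR, 0.289% in Id3+ eTR and 0.00804% in Id3+ cTR. With edgeR 3 of the 9 genes had an unadjusted p under 0.05 in each of these comparisons, and DESeq2 called 2, 1 and 0 of them. The tissue difference of Egr1 had opposite signs in the populations. It was -1.15 ± 0.31 in Id3- eTR (edgeR adjusted p = 0.185) and -1.05 ± 0.31 in Id3+ eTR (adjusted p = 0.195), against 0.68 ± 0.33 in Id3+ cTR (adjusted p = 0.652). In each population all 3 mice had the same direction. Tested directly, the difference from Id3+ cTR in lymph node minus that in spleen was -1.83 ± 0.46 for Egr1 in Id3- eTR (edgeR adjusted p = 0.303) and -1.73 ± 0.45 in Id3+ eTR (adjusted p = 0.36). Neither was called. The 3 such tests across tissues called 0.0241%, 0% and 0% of all genes and none of the 9, with 3, 3 and 1 of the 9 at an unadjusted p under 0.05 and 1, 1 and 0 called by DESeq2. DESeq2 called the first Egr1 difference at an adjusted p of 0.0239, and over all alternatives it reached 0.56.

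Other tissue differences were of similar standing. Egr2 in Id3+ cTR was 1.70 ± 0.54 higher in lymph node (edgeR adjusted p = 0.422), with 21.2, 31.7 and 23.8 CPM in lymph node and 1.95, 4.79 and 17.3 CPM in spleen. Nr4a2 in Id3- eTR was at -1.55 ± 0.40 in lymph node against spleen (adjusted p = 0.159, and 0.0325 with DESeq2, with up to 0.5 over the alternatives). Cd69 in Id3+ eTR was at 0.52 ± 0.12 (adjusted p = 0.08, and 0.00322 with DESeq2, with up to 0.353). Nfatc1 was lower in lymph node than in spleen in all 3 populations, by differences of -0.45 ± 0.18, -0.48 ± 0.18 and -0.40 ± 0.19, with edgeR adjusted p of 0.498, 0.316 and 0.639.

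**Figure D3:**
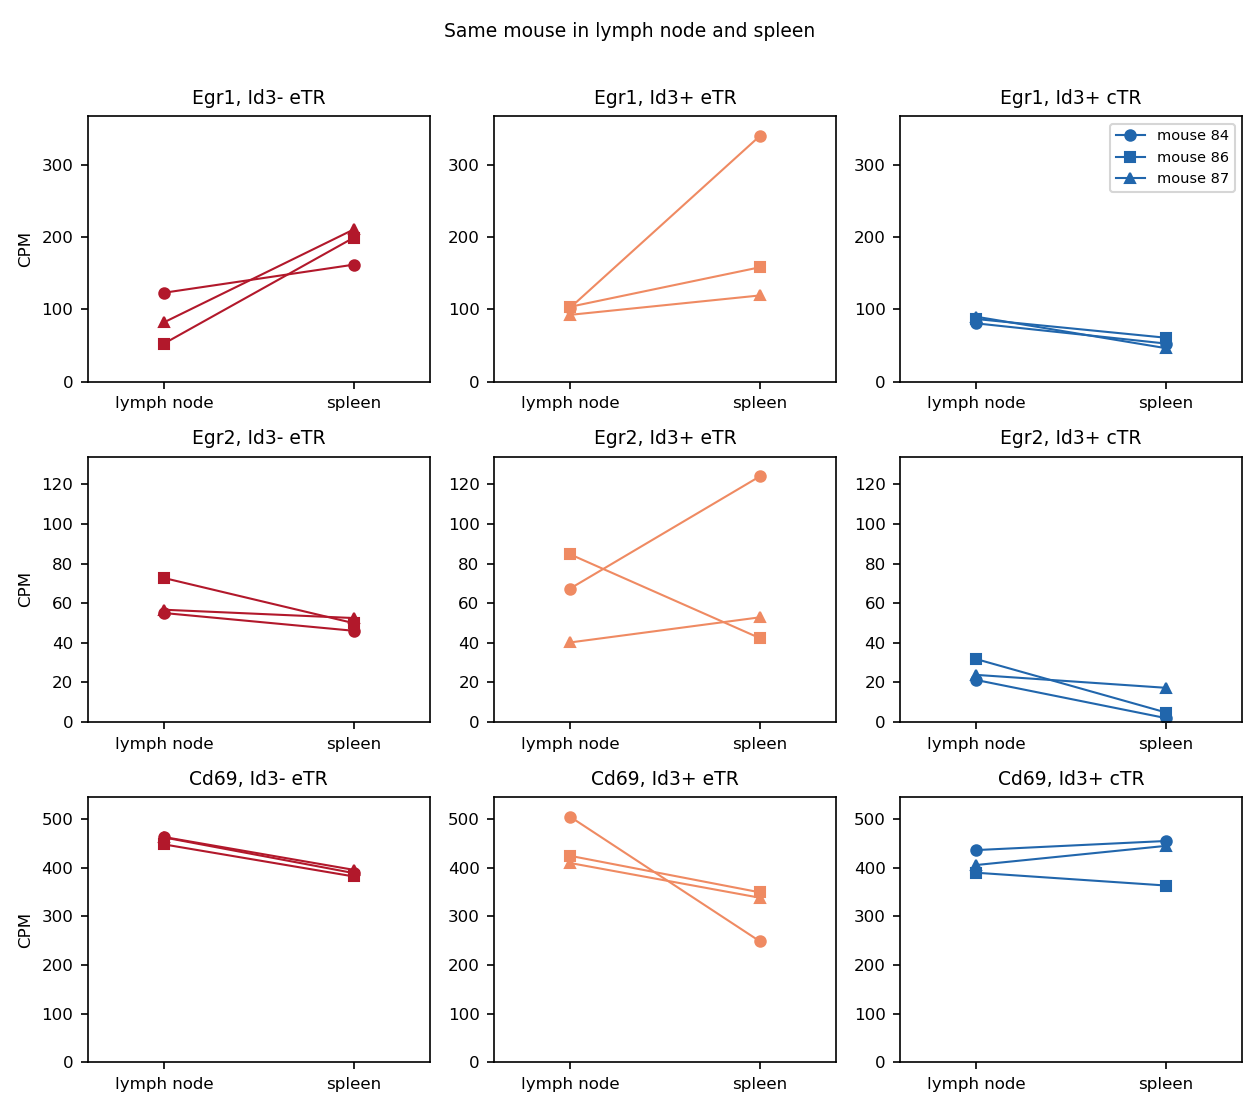
Egr1, Egr2 and Cd69 in CPM (linear axis from 0) in lymph node and spleen of the same mouse, with a panel for each population and a line for each of the 3 mice. For Egr1 every line slopes up toward spleen in Id3- eTR and Id3+ eTR and down in Id3+ cTR, and Cd69 slopes down toward spleen in every mouse of both effector populations.

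Genes with a like profile were sought by the root mean square difference of log2 CPM over the 18 libraries, each gene centred on its own mean. The nearest to Nfatc1 were Nsmaf, Itgal and Rgs3, at 0.27, 0.29 and 0.29. The nearest to Spry1 were Tbc1d4, Nrp1 and Zc3h12d, at 0.38 each. Egr1 lay nearest to Hip1r, Khnyn and Lnx2 (0.43, 0.44 and 0.45), Nr4a3 to Gem, Impa2 and Nelfe (0.48, 0.49 and 0.49), Nr4a2 to Ccdc50-ps, Cd160 and Irf2bp2 (0.50, 0.51 and 0.53) and Egr2 to Kif13a, Slc4a8 and Plscr1 (0.66, 0.66 and 0.67). None of the 18 genes is among the 10. The group means of Nr4a1, Cd5 and Cd69 spanned 0.62, 0.30 and 0.57 on the log2 scale, below the span of 1 at which neighbours were named.

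Related genes were counted in 4 lists, which were chosen with earlier results of these data known. Their counts beside the shares of all genes are therefore descriptive only. Of 26 other genes known to respond to the receptor, 12 were higher and 2 lower in Id3- eTR against Id3+ cTR of lymph node, where 8.26% of all genes were higher and 4.68% lower. In Id3+ eTR against Id3+ cTR of lymph node 12 were higher and 1 lower, beside 4.2% and 1.46% of all genes. In spleen 10 were higher and 2 lower in Id3- eTR against Id3+ cTR, beside 7.17% and 5.09% of all genes. In spleen Id3+ eTR 7 were higher and none lower, beside 2.93% and 1.39%, and the 7 became 3 without the 3 libraries that stood apart. These shares of all genes hold for the other lists in the same comparisons. The list medians in Id3- eTR were 0.46 in lymph node and 0.46 in spleen, beside 0.00 over all genes in both. Pdcd1, the inhibitory receptor PD-1, rose by 2.82 ± 0.32 in lymph node and 2.95 ± 0.32 in spleen (edgeR adjusted p = 1.06e-05 and 8.53e-06). Bhlhe40, a transcription factor of activated T cells, rose by 2.23 ± 0.26 and 3.31 ± 0.28 (adjusted p = 1.33e-05 and 5.44e-07), and Icos, a costimulatory receptor, by 2.42 ± 0.11 and 2.08 ± 0.11 (adjusted p = 4.09e-10 and 1.82e-09). Myc, a growth regulator, fell by 2.02 on the log2 scale in lymph node and by 1.01 in spleen in the same comparison (adjusted p = 2.32e-07 and 0.000278). It was picked out after its values were seen.

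Between the effector populations, 2 of these 26 were higher and 2 lower in Id3- eTR of lymph node, and 4 were higher and 2 lower in spleen. Over all genes 1.45% were higher and 1.17% lower in lymph node in this comparison, and 1.53% and 1.75% in spleen. Icos and Ctla4 were higher and Myc and Cd200 lower in both tissues. Icos differed by 1.03 ± 0.10 in lymph node and 1.35 ± 0.11 in spleen (edgeR adjusted p = 1.84e-05 and 1.14e-06), and Myc by -1.29 ± 0.16 and -1.01 ± 0.15 (adjusted p = 0.000119 and 0.000963). The Ctla4 calls reached an adjusted p of 0.198 in lymph node and 0.0909 in spleen over the alternatives, and the Cd200 call 0.0663 in lymph node. These 4 genes were chosen after their values were seen.

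Of the 22 family members and partners of the 10 genes, 16 were tested. In Id3- eTR against Id3+ cTR 1 was higher and 3 were lower in each tissue, with medians of -0.10 in lymph node and 0.10 in spleen. S1pr1, the egress receptor, was at -1.29 ± 0.13 in lymph node and -1.49 ± 0.13 in spleen (edgeR adjusted p = 2.4e-06 and 7.05e-07). Klf2, a factor known to drive S1pr1, differed by -1.18 ± 0.15 in lymph node and by -1.05 ± 0.15 in spleen (adjusted p = 4.6e-05 and 0.000163). Rcan3, a calcineurin regulator, differed by -0.99 ± 0.26 and -0.92 ± 0.26 (adjusted p = 0.0161 and 0.0291) in the same order. The Rcan3 calls were lost without single libraries, with adjusted p up to 0.0834 in lymph node and 0.145 in spleen. The gene that was higher was Nfatc2, an NFAT factor, at 0.72 ± 0.22 and 0.74 ± 0.23 (adjusted p = 0.0386 and 0.041), which was named after its value was seen and reached an adjusted p of 0.173 and 0.166 over the alternatives. In Id3+ eTR against Id3+ cTR none of the 16 was higher and 3 were lower in lymph node, and 1 was higher and 2 were lower in spleen. Without the 3 libraries that stood apart all 3 of those spleen calls were lost, with adjusted p of 0.448 for Nfatc2, 0.464 for Klf2 and 0.114 for S1pr1. Between the effector populations 1 was higher in Id3- eTR of lymph node, beside 1.45% of all genes, and 1 lower in spleen, beside 1.75%. The related genes Spry2 and Spry4 and Egr4, another member of the Egr family, were at or near 0, with Spry2 at 0 counts in every group and Egr4 at 0 counts in Id3+ cTR of both tissues.

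Of 28 genes of the receptor complex and its proximal signalling, 3 were higher and 5 lower in Id3- eTR against Id3+ cTR of lymph node, and 2 were higher and 6 lower in spleen. In Id3+ eTR against Id3+ cTR, 2 were higher and 3 lower in lymph node, and none was higher and 3 were lower in spleen. That spleen count was 0 higher and 0 lower without the 3 libraries that stood apart, and 2 higher and 7 lower with DESeq2. Themis, a signalling adaptor, was at -1.20 ± 0.21 in lymph node and -1.33 ± 0.21 in spleen in Id3- eTR against Id3+ cTR (edgeR adjusted p = 0.000749 and 0.000334). Prkcq, the kinase PKC-theta, was at -0.65 ± 0.10 and -0.75 ± 0.10 (adjusted p = 0.00017 and 4.7e-05). Ptpn22, an inhibitory phosphatase, was at 0.74 ± 0.10 and 0.60 ± 0.10 (adjusted p = 7.53e-05 and 0.000706). The list medians were -0.01 in lymph node and -0.20 in spleen. Without the 3 libraries that stood apart, 1 was higher and 2 were lower in spleen Id3- eTR against Id3+ cTR. Between the effector populations 1 was lower in Id3- eTR in each tissue, beside 1.17% of all genes in lymph node and 1.75% in spleen. These were Ptpn6 in lymph node and Prkcq in spleen, both named after their values were seen. The Ptpn6 call was lost without any of 4 single libraries (adjusted p up to 0.119). The Prkcq call was lost with the mouse as a block (0.0528), without any of 4 single libraries (up to 0.158) and without the 3 libraries (0.12).

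**Figure D4:**
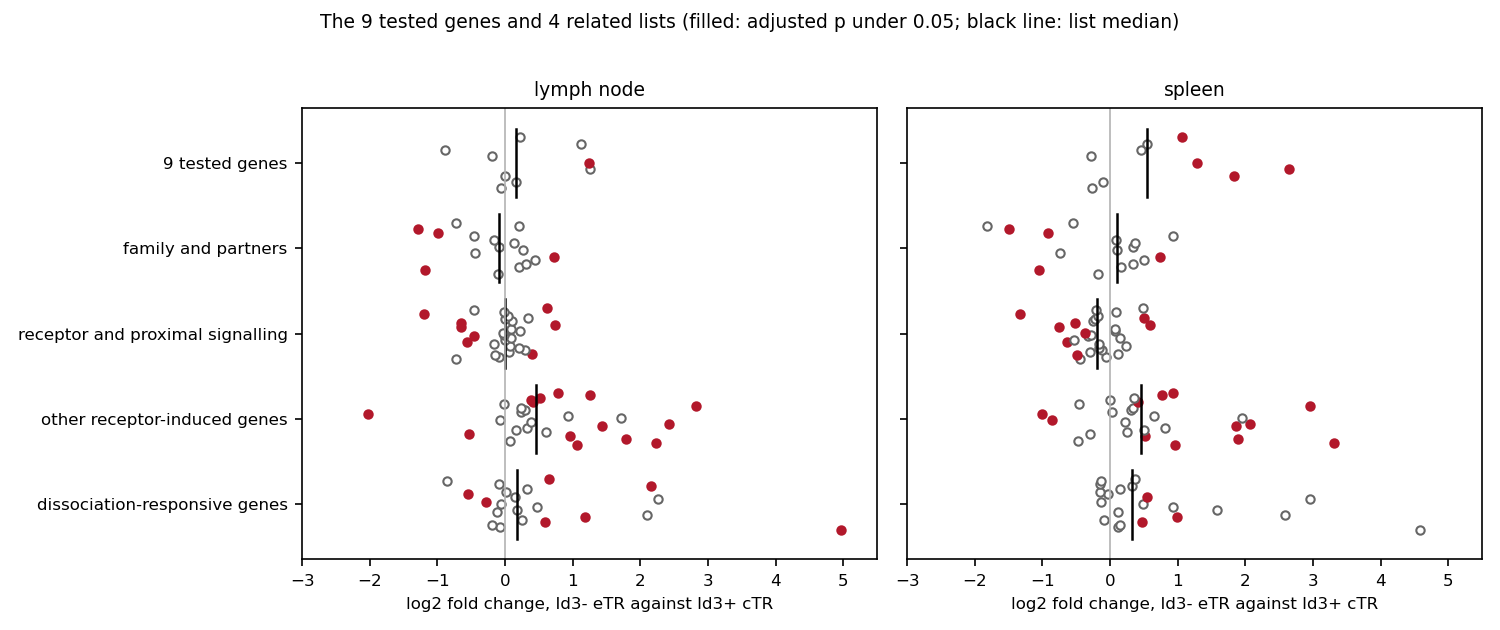
Log2 fold change in Id3- eTR against Id3+ cTR of the 9 tested genes and of 4 lists of related genes, with a point for each gene and a black line at the median of each list. Filled points passed an adjusted p of 0.05, and the lists were chosen with earlier results of these data known. Among the other receptor-induced genes 12 filled points in lymph node and 10 in spleen lie to the right of 0, and 2 in each tissue to the left.

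Immediate-early genes also respond to cell isolation, so 21 such genes known to respond to tissue dissociation were counted beside the Nr4a and Egr genes. In Id3- eTR against Id3+ cTR 5 were higher and 2 lower in lymph node, and 3 were higher and none lower in spleen. Over all genes 12.9% were called in either direction in lymph node and 12.3% in spleen in this comparison. In Id3+ eTR against Id3+ cTR 2 were higher and none lower in lymph node, and none was called in spleen. None was called between the effector populations in either tissue, where 2.62% of all genes were called in lymph node and 3.28% in spleen. In spleen Id3- eTR against Id3+ cTR 1 was higher without the 3 libraries that stood apart, and 5 with DESeq2. Their summed level in lymph node was 5517 to 5696 CPM in Id3- eTR and 5298 to 5906 CPM in Id3+ eTR, against 5065 to 5272 CPM in Id3+ cTR. Their summed level in spleen was 6026 to 8170 CPM in Id3- eTR and 6290 to 6537 CPM in Id3+ eTR, against 5890 to 6974 CPM in Id3+ cTR. Fosb was at 1.18 ± 0.27 in lymph node and 0.99 ± 0.27 in spleen in Id3- eTR against Id3+ cTR (edgeR adjusted p = 0.00723 and 0.0209), the spleen call being lost without any of 4 single libraries (up to 0.103) or without the 3 libraries that stood apart (0.162). Dusp1 differed by 0.58 ± 0.11 in lymph node (adjusted p = 0.00149) and by 0.47 ± 0.11 in spleen (adjusted p = 0.00895), a call lost without spleen Id3- eTR of mouse 86 (0.0519). Atf3 was at 23.8 ± 19.1 CPM in Id3- eTR of lymph node, against 0.71 ± 1.23 CPM in Id3+ cTR (adjusted p = 0.0437, up to 0.145 without single libraries). The part of these genes in the Egr results was not tested.

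The markers of regulatory T cells were present in every group, with Foxp3 means between 259 and 290 CPM and Cd4 means between 259 and 350 CPM. Of the 6 markers in that list 2 were higher in Id3- eTR against Id3+ cTR of lymph node, and 2 were higher and 1 lower in spleen. Ikzf2 differed by 0.98 ± 0.14 in lymph node and 0.84 ± 0.14 in spleen (edgeR adjusted p = 9.97e-05 and 0.000499). Ctla4 differed by 0.96 ± 0.10 and 0.52 ± 0.10 (adjusted p = 6.63e-06 and 0.00243). Il2ra was lower in spleen, at 401 ± 78.8 CPM in Id3- eTR against 724 ± 108 CPM in Id3+ cTR (adjusted p = 0.00168). It was not called in lymph node (adjusted p = 0.839). Of 9 myeloid markers 6 were tested, and 4 were higher in Id3- eTR against Id3+ cTR of lymph node and 3 in spleen, a count of 0 in spleen without the 3 libraries that stood apart. Fcer1g, a signalling chain of Fc receptors, was at 12.6 ± 7.15 CPM in Id3- eTR of lymph node, against 1.002 ± 1.44 CPM in Id3+ cTR (edgeR adjusted p = 0.0112). In spleen Fcer1g was at 16.2 ± 2.96 CPM in Id3- eTR, against 2.60 ± 1.21 CPM in Id3+ cTR (adjusted p = 0.0492). Tyrobp, an adaptor of myeloid and NK receptors, was at 17.4 ± 6.91 CPM in Id3- eTR of lymph node, against 3.46 ± 1.34 CPM in Id3+ cTR (adjusted p = 0.0123). In spleen Tyrobp was at 19.4 ± 3.41 CPM in Id3- eTR, against 4.23 ± 2.41 CPM in Id3+ cTR (adjusted p = 0.0184). Spi1, the myeloid factor PU.1, was at 11.4 ± 7.44 CPM in Id3- eTR of lymph node, against 0.118 ± 0.205 CPM in Id3+ cTR (adjusted p = 0.0216), and was not called in spleen (adjusted p = 0.565). Each of these calls was lost without some single libraries, with adjusted p over the alternatives up to 0.0562 for Fcer1g, 0.0627 for Tyrobp and 0.0891 for Spi1 in lymph node, and up to 0.341 for Fcer1g and 0.0804 for Tyrobp in spleen. The summed level of the myeloid list was 327 to 365 CPM in Id3- eTR and 216 to 446 CPM in Id3+ eTR of lymph node, against 141 to 167 CPM in Id3+ cTR. In spleen it was 234 to 296 CPM in Id3- eTR and 152 to 257 CPM in Id3+ eTR, against 137 to 264 CPM in Id3+ cTR. Of the same list, Csf1r, Itgam and Itgax averaged 3.28 CPM or less in every group. The median log2 fold change of the 6 tested markers was 2.84 in lymph node and 1.88 in spleen in Id3- eTR against Id3+ cTR. Of 7 CD8 T and NK cell markers 6 were tested, and 2 were higher in Id3- eTR against Id3+ cTR of lymph node and 1 in spleen. Nkg7, a cytotoxic granule protein, rose in both tissues. It was at 145 ± 36.2 CPM in Id3- eTR of lymph node, against 22.8 ± 13.7 CPM in Id3+ cTR (edgeR adjusted p = 4.6e-05), and at 147 ± 27.9 CPM in Id3- eTR of spleen, against 41.9 ± 16.2 CPM in Id3+ cTR (adjusted p = 0.00141). Klrk1, the receptor NKG2D, was at 4.30 ± 6.83 CPM in Id3- eTR of lymph node and at 0 in Id3+ cTR (adjusted p = 0.0474, up to 0.348 over the alternatives). The sums of this list in lymph node were 179 to 230 CPM in Id3- eTR and 153 to 239 CPM in Id3+ eTR, against 59.9 to 105 CPM in Id3+ cTR. In spleen they were 187 to 220 CPM in Id3- eTR and 97.7 to 128 CPM in Id3+ eTR, against 76.3 to 168 CPM in Id3+ cTR. Ncr1 was at 0 in every group. Gzma was higher in Id3- eTR than in Id3+ eTR of spleen, at 15.8 ± 12.1 CPM against 0.447 ± 0.774 CPM (edgeR adjusted p = 0.0483). It was not called between them in lymph node (adjusted p = 0.95).

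Of 9 B cell markers 7 were tested. Of these 2 were higher in Id3- eTR against Id3+ cTR of lymph node and 1 was lower in spleen. Cd74 differed by 0.93 ± 0.15 and Ighm by 0.41 ± 0.11 in lymph node (edgeR adjusted p = 0.000521 and 0.0261). The Ighm call was lost without some single libraries (up to 0.114). Cd79a was at 3.56 ± 3.16 CPM in spleen Id3- eTR, against 29.35 ± 24.8 CPM in Id3+ cTR with overlapping ranges (adjusted p = 0.0213). In lymph node it was at 5.56 ± 0.835 CPM against 20.1 ± 4.25 CPM (adjusted p = 0.141). The sums of the B cell list, mostly Ighm and Cd74, were 1167 to 1266 CPM in Id3- eTR and 1111 to 1329 CPM in Id3+ eTR of lymph node. They were 774 to 900 CPM in Id3+ cTR there. In spleen they were 1133 to 1247 CPM in Id3- eTR and 995 to 1101 CPM in Id3+ eTR, against 1113 to 1288 CPM in Id3+ cTR. Pax5, a defining factor of the B lineage, averaged 2.15 CPM in spleen Id3+ cTR and 0.644 CPM or less in every other group. Of 6 erythroid and platelet markers 1 was lower in Id3- eTR against Id3+ cTR of spleen. This was Alas2, at 2.01 ± 1.15 CPM against 22.1 ± 13.8 CPM (edgeR adjusted p = 0.0163). The sums of this list in spleen were 18.4 to 88.6 CPM in Id3- eTR and 10.1 to 91.8 CPM in Id3+ eTR, against 120 to 202 CPM in Id3+ cTR. In lymph node those sums were 9.50 CPM or less in every library. Of 6 stromal and endothelial markers only Pecam1 was tested, which was lower in Id3- eTR against Id3+ cTR in both tissues, and Cdh5 was at 0 in every group. The part of these other cell types in the results for Egr1, Egr2, Nfatc1 and Spry1 was not tested.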

How the data were processed

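Polyadenylated RNA of 18 libraries, each from 500 sorted cells of 1 mouse, was amplified with SMART-Seq v4 and made into libraries with a modified Nextera XT protocol, per the labels' protocols. The authors deposited raw counts per gene for each library, and a second table of normalized values (unit: signal). Per the submitters' processing notes the tools were FastQC, TopHat, Bowtie, SAMtools, Picard and HTSeq 0.4.1, listed with no roles, and the genome build and strand setting are not given in the sources used here. For 99.986% of values the deposited signal equalled the count multiplied by 1 factor per library, to within 0.1%, so all tests used the counts. Gene symbols were matched for 32919 gene IDs, and 5072 IDs without a symbol held 0.891% of counts.

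Counts were filtered with filterByExpr (minimum count 10), which kept 12445 genes, scaled by TMM and fitted with edgeR 4.0.16 (R 4.3.3, limma 3.58.1), using the robust quasi-likelihood test, 2-sided, over all 6 groups. The shared spread rests on 12 residual degrees of freedom. The median SE of a log2 fold change was 0.311, at a common biological coefficient of variation of 0.294. P-values were adjusted by the Benjamini-Hochberg method over all tested genes, with calls made below 0.05. The script was tested on simulated data with 200 changed genes. Plain CPM values have no prior count, and log2 CPM for the likeness of profiles used a prior count of 2, genes averaging at least 3 and members whose group means spanned at least 1. Intervals and floors (3 counts) cover counting error only.

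Each mouse gave 1 library to each group, so the mouse number pairs the libraries. Deviations from the group means over 9776 genes had a median correlation of 0.0285 between libraries of the same mouse (45 pairs, -0.11 to 0.13) and -0.012 between libraries of different mice (90 pairs). Alternatives were DESeq2 1.42.0, its size factors in place of TMM, no filter, the replicate block, each library left out in turn and 3 libraries left out together. The 10 genes and the lists of related genes were chosen with earlier results of these data known. From each list up to 3 genes are named, those called the same way in both tissues with the largest mean absolute log2 fold change, filled from genes called in 1 tissue. Genes named outside that rule are marked where they stand, with some exceptions. Foxp3, Cd4, Csf1r, Itgam, Itgax, Pax5, Ncr1, Cdh5, Spry2, Spry4 and Egr4 were also named outside the rule and are not marked. Promoters were searched with Python 3.11.15 in RefSeq sequence.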

Additional observations from a re-analysis of the deposited data

Results flagged for a closer look

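The difference of Egr1 between tissues had opposite signs in the effector populations and in Id3+ cTR, and edgeR called none of these tissue differences with all libraries in the fit (adjusted p = 0.185, 0.195 and 0.652). The difference in Id3- eTR was called by DESeq2 (adjusted p = 0.0271), with up to 0.457 over the alternatives. Without the 3 libraries that stood apart, which belong to neither Id3- eTR group, it was nearly the same size, -1.15, with a smaller SE. Spleen Id3+ eTR of mouse 84 was set apart in part by its high Egr1, so that smaller spread is not separate support. In Id3- eTR and in Id3+ eTR all 3 mice had more Egr1 in spleen than in lymph node, whereas in Id3+ cTR all 3 mice had less. The difference from Id3+ cTR in lymph node minus that in spleen was -1.83 on the log2 scale for Id3- eTR and -1.73 for Id3+ eTR. These 2 values share the Id3+ cTR libraries. The test of the difference itself did not call either with edgeR (adjusted p = 0.303 and 0.36), and DESeq2 called the first (adjusted p = 0.0239). The lowest totals of the series belong to 2 of the 3 spleen Id3+ cTR libraries, and the part of depth in the Egr1 difference was not tested.

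Cd69 in Id3+ eTR had less in spleen than in lymph node in all 3 mice. The difference between Id3+ eTR and Id3+ cTR, lymph node minus spleen, was 0.55 and was not called by edgeR (adjusted p = 0.385). DESeq2 called it (adjusted p = 0.0351). The edgeR adjusted p reached 0.669 with single libraries left out and was higher still under another alternative.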

How the results depend on the processing

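Of 1350 recomputed differences of the 9 tested genes, 1326 kept their side of the threshold, 5 lost a call and 19 gained a call. While 0 calls changed sign, 85 differences that were not called either way did. DESeq2 called 2 of the 9 genes in Id3- eTR against Id3+ cTR of lymph node, 4 in Id3+ eTR against Id3+ cTR, 2 in Id3- eTR against Id3+ eTR, 2 in Id3- eTR between tissues, 1 in Id3+ eTR between tissues, and 1 in each of the tests of whether the difference of an effector population from Id3+ cTR varies with tissue. Without the 3 libraries that stood apart, 2 were called in Id3- eTR against Id3+ cTR of lymph node, 2 in Id3+ eTR against Id3+ cTR of spleen, 1 in Id3- eTR against Id3+ eTR of spleen and 1 in Id3- eTR between tissues. Leaving out 1 library at a time gave 1 to 2 calls in Id3+ eTR against Id3+ cTR of lymph node, 0 to 1 in Id3- eTR against Id3+ eTR of either tissue, and 4 to 5 in either effector population against Id3+ cTR of spleen. For DESeq2 and for the fit without the 3 libraries, only the larger changes of count are listed here. Smaller ones left out include the gain of Cd69 with DESeq2 in spleen Id3+ eTR against Id3+ cTR (adjusted p = 0.011). The causes of these changes were not tested. The paired fit, with the mouse as a replicate block, left every such count as it was, with 1, 2 and 1 calls in lymph node, 4, 4 and 0 in spleen and 0 between tissues.

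Over all genes, DESeq2 called 566 against 326 with edgeR in Id3- eTR against Id3+ eTR of lymph node, 751 against 408 in spleen and 1020 against 538 in spleen Id3+ eTR against Id3+ cTR. Between tissues it called 147, 202 and 108 against 38, 36 and 1 with edgeR, and for the variation with tissue 47, 66 and 29 against 3, 0 and 0. Without the 3 libraries, 730 and 69 genes were called in spleen Id3- eTR and Id3+ eTR against Id3+ cTR (1526 and 538 with them), and 70 and 9 between tissues in Id3- eTR and Id3+ eTR. Without spleen Id3+ cTR of mouse 84 or 87, or spleen Id3+ eTR of mouse 84, the count in spleen Id3+ eTR against Id3+ cTR was 301, 256 and 345. It was 458 instead of 705 in lymph node without Id3+ cTR of mouse 87. Id3- eTR against Id3+ eTR fell to 200 and 192 in lymph node without Id3- eTR of mouse 84 or Id3+ eTR of mouse 87, and to 267 in spleen without Id3- eTR of mouse 87. With 1 library left out, counts between tissues were 15 to 32 for Id3- eTR, 5 to 46 for Id3+ eTR and 0 to 24 for Id3+ cTR. With no filter, 62 genes were called between tissues in Id3+ eTR. Egr3 had no call with no filter.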
